A study of Mus musculus with 4 samples.

Results

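Conventional natural killer (NK) cells with transcripts of Eomes, the transcription factor that sets them apart from type 1 innate lymphoid cells (ILC1), were picked out of single-cell RNA-seq profiles of CD45+ cells from MC38 colon carcinomas. The members were chosen by measured values of the cells themselves: a cell was taken when it had at least 500 detected genes, at most 10% mitochondrial UMIs, at least 2 UMIs of Ncr1 and Klrb1c together, at most 2 of Cd3d, Cd3e and Cd3g, less than 0.2% of its UMIs from C1qa, C1qb, C1qc and Csf1r, at least 1 UMI of Eomes and none of Itga1 or Cd200r1. A UMI is a molecular barcode and stands for 1 captured probe molecule. Of 28290 deposited cells, 28194 passed the limits on genes and mitochondrial UMIs and 503 met the whole rule.

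The mice were humanized CTLA-4 mice (B-hCTLA-4, on C57BL/6), which carry human CTLA-4 in place of the mouse protein and were inoculated subcutaneously with cells of the mouse colon carcinoma line MC38. From a tumor size of about 100 mm3 they received 3 intraperitoneal treatments with an isotype control (hIgG1, 10 mg/kg), ipilimumab (human IgG1 against human CTLA-4, 10 mg/kg), αFcγRII (AT130-2, a mutated mouse IgG1 against mouse FcγRII, 20 mg/kg) or both antibodies, and tumors were taken on day 8. Each group was 1 library made from the pooled tumors of 11 mice, and all 4 libraries carry the same batch label, so differences between groups have no replicate error and no test. For the single-antibody libraries the sample title and the treatment field of the records contradict each other. They are named here by title, as titled αCTLA-4 and titled αFcγRII, and which of the antibodies each library received is not claimed. Values of 4 libraries are given throughout in the order isotype, titled αCTLA-4, titled αFcγRII and combination.

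NK cells are innate lymphocytes that kill without antigen receptors made by gene rearrangement. They weigh signals of activating receptors (NKp46, NKG2D, the Fc receptor CD16) against inhibitory receptors of the Ly49 and NKG2A families that read MHC class I, and they act through perforin, granzymes and interferon-γ. ILC1 share much of this program but stay in tissues, carry the integrin CD49a (Itga1) and CD200R1, and lack Eomes in most organs, while tumors can also hold cells with features of both.

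The rule found 131, 172, 75 and 125 NK cells in the 4 libraries. Their median depth was 3670, 3746.5, 3745 and 4093 UMIs per cell with 2146, 2172.5, 2146 and 2272 detected genes, and together they held 566763, 700895, 326551 and 643937 UMIs. Levels are given as UMIs in every 1000000 UMIs of the summed cells (CPM), so the titled αFcγRII library, with the fewest cells, carried the largest counting error. Many members lay on or near the Eomes limit of the rule, where 180 had exactly 1 UMI and 323 had 2 or more. Of the other limits, 481 had no Cd3 UMI and 22 had 1 or 2, 279 had no macrophage UMI and 15 lay between 0.1% and 0.2%, and 41 had exactly 2 UMIs of Ncr1 and Klrb1c. Just outside, 185 cells missed membership only by having no Eomes UMI, 112 only by 1 Itga1 or Cd200r1 UMI, 29 only by having 1 Ncr1 or Klrb1c UMI, 7 only by 3 or 4 Cd3 UMIs and 9 only by macrophage UMIs of 0.2% to 0.3%. No full cell barcode was shared between libraries. The 16-base droplet part of the barcode was shared by 712 to 1148 cells in each pair of libraries, as pooled probe-barcoded samples loaded together allow, and 159 NK cells sat in a droplet that another library also used.

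Markers outside the rule went with the label of conventional NK cells. All 15 genes of a list of NK identity genes were detected in every library, with summed levels of 22872, 28432, 26030 and 21226 CPM against 554, 621, 482 and 586 CPM in macrophages of the same libraries. In the ILC1-like cells described below the same list summed to 14333, 13459, 14068 and 12058 CPM, and 8 of its 15 genes were higher in NK cells and none lower (edgeR, median log2 difference 0.60). The list member with most UMIs was Gzma, granzyme A of the cytotoxic granule, at 6639, 9352, 7163 and 5145 CPM. Klra8, which encodes the activating receptor Ly49H, was at 593, 668, 542 and 486 CPM and was detected in 84, 128, 50 and 76 of the cells. Both were named as markers of these cells when the cells were chosen, and both are among the 8 genes higher than in ILC1-like cells. The list itself was chosen with earlier results of these data known. The levels and the list counts are therefore a description. Of the genes that made the rule, Eomes stood at 591, 619, 539 and 607 CPM, Ncr1 (NKp46) at 1306, 1320, 1354 and 1047 CPM and Klrb1c (NK1.1) at 605, 778, 802 and 533 CPM.

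Markers of other cell types were few in these cells but not absent. The 14 macrophage markers summed to 2440, 1023, 1072 and 2174 CPM, against 34571, 36940, 41138 and 32603 CPM in macrophages. Lyz2, Ctsd, Ctsd and Spp1 were the most abundant of them, and 0, 1, 4 and 0 of the 14 were at 0. The 13 T cell markers summed to 1320, 1729, 2009 and 1623 CPM, of which the β-chain constant gene Trbc1, which NK cells are known to transcribe without a rearranged receptor, gave 1050, 1412, 1565 and 1221 CPM, and 6, 6, 7 and 3 of them were at 0. The 6 neutrophil markers gave 486, 4, 0 and 84 UMIs, of which 462 came from 1 isotype cell and 65 from 1 combination cell. Summed B cell markers were at 7.06, 65.6, 0 and 3.11 CPM, tumor and stroma markers at 5.29, 11.4, 6.12 and 6.21 CPM, dendritic cell markers at 441, 435, 545 and 422 CPM (mostly the integrin Itgax), and ILC2 and ILC3 markers at 155, 150, 150 and 191 CPM (mostly Gata3, with 7, 7, 8 and 7 of 9 at 0). The macrophage markers were higher in the isotype and combination libraries than in the others, and their part in the differences between libraries below was not tested beyond the stricter macrophage limits given there.

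NK cells made up 1.61% of filtered cells in the isotype library (95% exact binomial interval 1.35% to 1.91%), 2.70% in titled αCTLA-4 (2.32% to 3.13%), 1.23% in titled αFcγRII (0.971% to 1.54%) and 1.65% in the combination (1.37% to 1.96%). All intervals on shares and ratios of libraries cover counting error only, not the spread between mice. For the combination, ratios of this share were 1.02 to isotype (0.802 to 1.30), 0.609 to titled αCTLA-4 (0.485 to 0.764) and 1.33 to titled αFcγRII (1.00 to 1.77). The titled αCTLA-4 share was 1.68 times that in isotype (1.34 to 2.11). T, NK and ILC cells together numbered 697, 1051, 408 and 841, the most again in titled αCTLA-4. Over these lymphocytes the NK share was 18.8%, 16.4%, 18.4% and 14.9%, and titled αCTLA-4 then stood at 0.871 times isotype and the combination at 0.809 times titled αFcγRII.

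**Figure D1:**
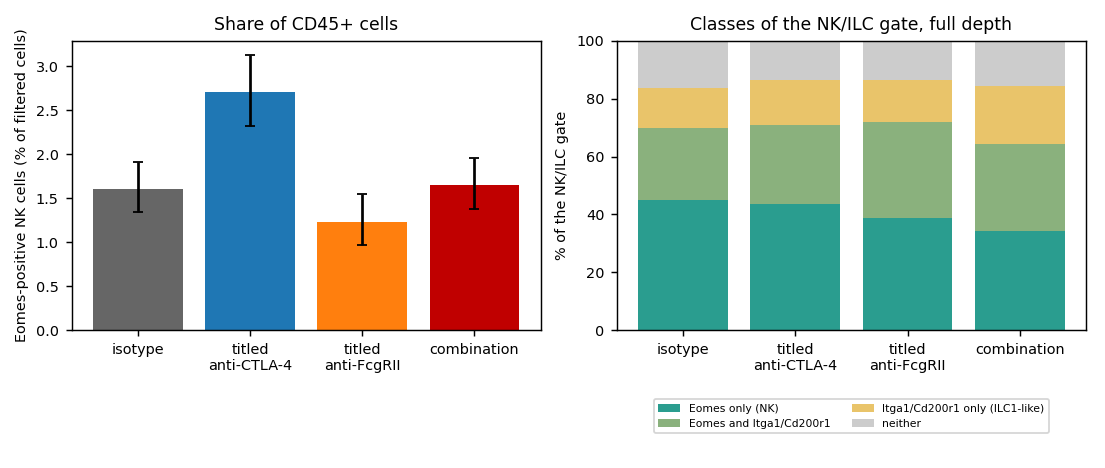
The left panel plots NK cells as a percent of filtered cells for the 4 libraries, with 95% exact binomial intervals, and the titled αCTLA-4 bar stands highest at 2.70%. The right panel splits all cells of the NK and ILC gate (cells that met the limits on Ncr1, Klrb1c, Cd3 and macrophage UMIs) by Eomes and by Itga1 or Cd200r1, and the Eomes-only part is 45% in isotype and 34.2% in the combination.

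Within all cells that met the Ncr1, Klrb1c, Cd3 and macrophage conditions (291, 396, 193 and 365 cells, called the NK and ILC gate here), the Eomes-positive NK cells were 45% (39.2% to 50.9%), 43.4% (38.5% to 48.5%), 38.9% (31.9% to 46.1%) and 34.2% (29.4% to 39.4%). The remainder were ILC1-like cells with Itga1 or Cd200r1 and no Eomes (13.7%, 15.4%, 14.5% and 20.0%), cells with both (24.7%, 27.5%, 33.2% and 30.1%) and cells with neither. A class set by a zero depends on depth, so every gated cell was drawn down to 2259 UMIs, which left out 44, 35, 22 and 24 shallower cells. NK cells were then 40.4%, 41.0%, 36.6% and 32.3% of the gate, and the combination to isotype ratio moved from 0.761 (0.629 to 0.920) to 0.799 (0.644 to 0.991). The combination held the smallest NK share of the gate in both versions, and the intervals of the titled αFcγRII library overlapped those of every other library.

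The first comparison was between NK cells and the 40, 61, 28 and 73 ILC1-like cells of the same tumors, with the 4 libraries as replicates of the difference and the genes of the rule left out. NK cells had more of several Ly49 receptors, granzymes A and B, perforin, Ccl5 and the trafficking receptors S1pr5 and S1pr1, and less of Cxcr6, Il7r, Pdcd1, Tmem176a and granzyme C. Of 7763 genes tested by edgeR's quasi-likelihood test with the library as a block and Benjamini-Hochberg adjustment, 375 were higher in NK cells (4.83%) and 380 lower (4.90%), with a median log2 difference of −0.006 over all genes. ILC1-like cells were deeper, at medians of 6381.5, 6238, 8518 and 9565 UMIs. With cells of both classes drawn down to 1 depth, 185 genes were higher and 223 lower. Without the titled αCTLA-4 library, which held the most NK cells, 153 and 175 genes passed.

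Several receptors of the Ly49 family, which bind MHC class I and its viral mimics, were among the genes higher in NK cells. Klra4 (Ly49D, activating) was at 875, 917, 741 and 790 CPM in NK cells against 105, 46.1, 3.73 and 9.11 CPM in ILC1-like cells, so the lowest NK value stood above the highest ILC1-like one. Its log2 difference was 4.61 ± 0.42 (SE, n = 4 libraries, higher in 4 of 4, edgeR adjusted p = 1.4e-04), the largest among genes at 50 CPM or more. Klra8 differed by 4.03 ± 0.27 and Klra7 (Ly49G, inhibitory) by 2.87 ± 0.18, both higher in 4 of 4 libraries. Ly49 genes are near-identical paralogs, and probe UMIs may be split between them. Of 16 lectin-like receptor genes tested, 7 were higher and 3 lower, with a median of 0.45. The lower ones included Klrc1 (NKG2A, an inhibitory receptor), at 505, 673, 827 and 674 CPM against 1118, 1174, 1179 and 1068 CPM, and Klrb1b (an inhibitory NKR-P1 receptor), with log2 differences of −0.78 ± 0.11 and −0.94 ± 0.09 (lower in 4 of 4, edgeR adjusted p = 0.0016 and 2.2e-04).

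The granule proteins split by gene. Gzma differed by a log2 of 3.50 ± 0.28 (6639, 9352, 7163 and 5145 CPM against 1233, 551, 321 and 589 CPM). Gzmb, the granzyme that activates caspases, was at 3243, 3724, 2575 and 3044 CPM against 669, 746, 93.3 and 927 CPM, a log2 difference of 2.57 ± 0.35 (higher in 4 of 4, edgeR adjusted p = 0.0010). Prf1, the pore former, was at 1715, 1898, 1690 and 1534 CPM against 601, 551, 381 and 710 CPM (1.62 ± 0.15, 4 of 4, edgeR adjusted p = 1.5e-04). Neither of them overlapped between the classes. Gzmc went the other way, at 3185, 1675, 4122 and 7890 CPM in NK cells and 16759, 16853, 17009 and 18077 CPM in ILC1-like cells, a log2 difference of −2.24 ± 0.25 (lower in 4 of 4, edgeR adjusted p = 4.3e-04). Gzmf was lower too (−3.51 ± 0.69, edgeR adjusted p = 0.0092) but lost its call without the titled αCTLA-4 library (−3.46) and without the library block (−2.33), and Gzmd was not called (−1.06, edgeR adjusted p = 0.23). Of 21 cytotoxicity genes tested 8 were higher and 5 lower, with a median of −0.06. The lower ones included Tnfsf10 (TRAIL, a death receptor ligand known from ILC1), at 90.0, 57.1, 88.8 and 87.0 CPM against 323, 319, 340 and 256 CPM.

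Trafficking and residency genes differed as well. S1pr5, the sphingosine phosphate receptor that lets mature NK cells leave tissues, was at 102, 95.6, 82.7 and 83.9 CPM in NK cells and 20.4, 2.10, 0 and 1.30 CPM in ILC1-like cells, a log2 difference of 4.23 ± 0.49 (4 of 4, edgeR adjusted p = 5.2e-04). S1pr1 (2.37 ± 0.35) and Itga2 (CD49b, the classical NK integrin, 3.32 ± 0.23) were also higher in 4 of 4 libraries. Of 20 migration and adhesion genes, 11 were higher and 1 lower, the median being 0.39. The 1 lower gene was Cxcr6, the receptor that keeps lymphocytes in liver and tumors, at 26.5, 1.43, 24.5 and 37.3 CPM against 238, 356, 217 and 335 CPM (−3.77 ± 0.38, 4 of 4, edgeR adjusted p = 2.6e-04). Il7r, the interleukin-7 receptor, was at 5.29, 7.13, 12.2 and 15.5 CPM against 47.6, 128, 112 and 134 CPM (−3.40 ± 0.26). Of 19 genes listed as early or ILC1 genes, 10 were lower and 1, Cd27, higher (median −0.85), and of 11 late maturation genes 7 were higher and none lower (median 1.26). Among the latter, Itgam (CD11b) lost its call without titled αCTLA-4 or titled αFcγRII, and Klrg1 (0.50, edgeR adjusted p = 0.047) lost its call with DESeq2, without the block, without any 1 of the 4 libraries, without the top 5% of doublet scores and with the macrophage limit at 0.05%, and changed sign to −0.20 at equal depth.

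**Figure D2:**
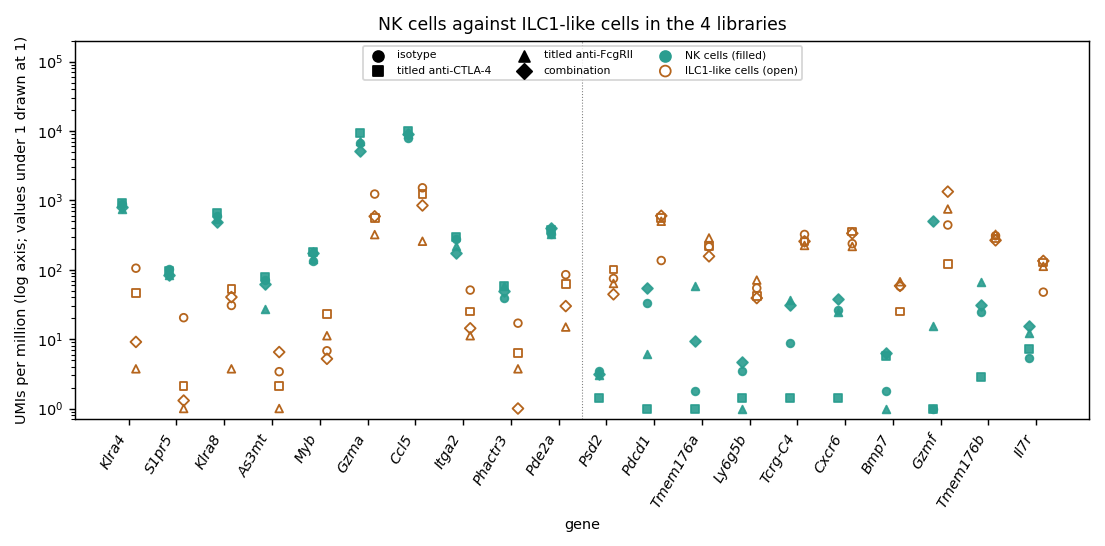
Levels in CPM on a log axis are plotted for the 10 genes most in favour of NK cells and the 10 most in favour of ILC1-like cells, 1 point per library, filled for NK cells and open for ILC1-like cells. For Klra4, Ccl5 and Cxcr6 the points of the 2 classes lie apart in all 4 libraries.

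The remaining genes with the largest differences had varied roles. On the NK side they were the chemokine gene Ccl5 (7938, 9842, 8954 and 9158 CPM against 1519, 1231, 258 and 845 CPM), the transcription factor gene Myb (136, 181, 141 and 172 CPM against 6.79, 23.1, 11.2 and 5.21 CPM), the arsenic methyltransferase gene As3mt, the phosphodiesterase gene Pde2a, and Phactr3, which lost its call without titled αCTLA-4. Log2 differences of the first 4 were 3.40 ± 0.33, 3.84 ± 0.29, 3.99 ± 0.41 and 2.97 ± 0.27. On the ILC1-like side were Psd2 (−4.59 ± 0.39), Ly6g5b (−4.06 ± 0.48) and Bmp7, a growth factor of the BMP family (−3.54 ± 0.50). The T cell receptor γ constant gene Tcrg-C4 (−3.94 ± 0.40), Tmem176a (−4.14 ± 0.51) and Tmem176b (−3.46 ± 0.36) were there too. Rearrangement of receptor genes was not measured. Pdcd1, which encodes PD-1, was at 33.5, 0, 6.12 and 54.4 CPM in NK cells against 136, 560, 500 and 599 CPM in ILC1-like cells (−4.17 ± 0.56, lower in 4 of 4, edgeR adjusted p = 0.0010). The NK range lay below the ILC1-like range for each of these ILC1-side genes.

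Among the other gene groups, 7 of 17 checkpoint and co-receptor genes were lower in NK cells and 1 higher (median −0.48). Lag3 was at 42.4, 31.4, 94.9 and 109 CPM against 200, 235, 306 and 251 CPM (−1.91 ± 0.23, edgeR adjusted p = 5.8e-04, 4 of 4). Of 13 cytokine genes, Ccl5, Ccl4, Ccl3 and Ifng were higher and Xcl1, Ltb and Lta lower (median 0.24), where Ifng stood at 452, 529, 401 and 275 CPM against 245, 103, 89.6 and 49.5 CPM (1.93 ± 0.24, edgeR adjusted p = 7.2e-04, 4 of 4). Ccl3 and Ccl4 lost their calls without titled αCTLA-4, Ccl3 also with DESeq2, and Xcl1 (−0.57, lower in 3 of 4 libraries) without any of isotype, titled αCTLA-4 or titled αFcγRII and without the library block. Of 32 transcription factor genes 7 were higher, with Klf2, which drives S1P receptor genes, at 2.57 ± 0.21, and 3 lower, namely Ikzf2 (Helios, −2.31 ± 0.18), Zfp683 (Hobit, the residency factor, −3.20 ± 0.33) and Rora (−2.24 ± 0.25), with a median of 0.23. Tbx21 (T-bet), shared by both lineages, was not called (0.04, edgeR adjusted p = 0.89).

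The Fc receptor group had 6 of 21 genes higher and 2 lower (median 0.04): the adapter Cd247 differed by 2.09 ± 0.23, whereas Fcgr3 (the activating receptor CD16, −0.08, edgeR adjusted p = 0.92), Fcer1g (its γ chain, −0.11, edgeR adjusted p = 0.57) and Tyrobp (0.24, edgeR adjusted p = 0.13) did not pass. Of 28 immediate early and NF-κB feedback genes 10 were higher and none lower (median 0.43), including Nr4a2 (2.10 ± 0.33) and the phosphatase Dusp5 (1.43 ± 0.14). Of 22 glycolysis and hypoxia genes 10 were lower and 1 higher (median −0.69), including the glycolytic enzyme Pgk1 (−1.02 ± 0.17) and the lipid droplet gene Hilpda (−1.40 ± 0.22), of which Pgk1 lost its call at equal depth and Hilpda without the library block. Among 30 cytokine receptor and signal genes 6 were higher, such as Il12rb2, a chain of the interleukin-12 receptor (1.05 ± 0.14, not called at equal depth), and 4 lower, such as Il2ra (−1.75 ± 0.23), with a median of 0.16. Of 37 interferon response genes 3 were higher and 2 lower (median 0.34), and none of 26 cell cycle genes passed (median −0.97). Macrophage markers were lower in NK cells for 5 of 11 genes tested, with summed levels of 3302, 1799, 1926 and 4550 CPM in ILC1-like cells, and their part in these differences was not tested beyond the stricter limit of 0.05%, which changed no direction among called genes named here.

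The second comparison set NK cells against 105, 294, 67 and 223 CD8 T cells (at least 3 Cd3 and 2 Cd8a or Cd8b1 UMIs, none of Cd4, Ncr1 or Klrb1c), the other killer lymphocytes of these tumors. Compared with them, NK cells carried the Ly49 and NKR-P1 receptors and more granzyme A, B and C, perforin and Xcl1. They had less of T cell receptor genes such as Trac (though not of Trdc or Trbc1), checkpoint receptors, interferon-γ, glycolytic enzymes and cell cycle genes. The same edgeR test found 822 of 8275 genes higher in NK cells (9.93%) and 1083 lower (13.1%), at a median log2 difference of −0.015. Without the isotype library 714 genes were lower, and with cells drawn down to 1 depth 639. CD8 T cells had medians of 5263, 6937.5, 6779 and 7959 UMIs.

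Among genes higher in NK cells Klra4 and Klra8 had the largest differences: each had 2 UMIs in all CD8 T cells together, and the NK level was 2765 (interval 764 to 22850) and 1893 (523 to 15649) times as high. Of 17 lectin-like receptor genes tested, a list chosen for NK cells, 15 were higher and 2, Klrc1 and Klra2, lower (median 3.17). Klrc1 lost its call without the isotype, the titled αCTLA-4 or the titled αFcγRII library, with DESeq2, without the filter on low counts and without the library block. Klrb1f and Klrb1a of the NKR-P1 family differed by 6.23 ± 0.27 and 6.15 ± 0.34. Trdc, the T cell receptor δ constant gene, was at 251, 385, 270 and 219 CPM against 0, 5.43, 9.75 and 1.55 CPM (6.31 ± 0.32, 4 of 4, edgeR adjusted p = 7.9e-06). The adapter gene Clnk (6.08 ± 0.35) and the growth factor gene Vegfc (6.58 ± 0.49) followed, and Khdc1a and Phactr3 had no UMI in CD8 T cells, so that their NK levels were at least 151-fold and 111-fold higher, set against a floor of 3 UMIs over all CD8 T cells (the exact intervals begin at 121 and 89.0).

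On the T cell side, genes of rearranged receptors and their signalling led. Trbv31, Trbv14, Trbv4, Trbv5, Trbv20 and Trbv19, variable segments of the β chain, had no UMI in NK cells, which put them at least 123-, 77.1-, 66.9-, 67.9-, 56.5- and 51.4-fold lower against a floor of 3 UMIs over all NK cells. Gpm6b and Nrn1 were likewise at least 53.4- and 39.0-fold lower. The exact intervals of these 8 ratios ended between 0.0100 and 0.0317. Themis and Cd5, regulators of T cell receptor signals, had 1 NK UMI each, at 0.0012 (3.0e-05 to 0.00661) and 0.00128 (3.24e-05 to 0.00714) times the T cell level. Trac, the α constant gene, was at 5.29, 11.4, 9.19 and 9.32 CPM against 1976, 2880, 2896 and 1486 CPM (−7.99 ± 0.18). Of 9 T cell markers tested 8 were lower and 1, Trbc1, higher in NK cells (0.54 ± 0.12, median −5.61 over the list), Trbc1 being at 1050, 1412, 1565 and 1221 CPM against 830, 1091, 1023 and 610 CPM. Trbc1 lost its call without titled αFcγRII and without the library block.

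Killing and cytokine genes differed in both directions. Gzma was at 120, 178, 129 and 75.5 CPM in CD8 T cells, a log2 difference of 5.81 ± 0.11, Gzmc at 170, 732, 813 and 528 CPM (2.87 ± 0.45), and Gzmk, a granzyme of memory T cells, was lower in NK cells, at 17.6, 30.0, 3.06 and 18.6 CPM against 142, 231, 150 and 128 CPM (−3.16 ± 0.24, 4 of 4, edgeR adjusted p = 6.4e-05). Prf1 (1.54 ± 0.14) and Gzmb (1.15 ± 0.14) were higher in 4 of 4 libraries, and 10 of 23 cytotoxicity genes were higher and 4 lower (median 0.36). Ifng was lower in NK cells, where CD8 T cells stood at 697, 1335, 587 and 1295 CPM (−1.23 ± 0.27, edgeR adjusted p = 0.011, 4 of 4). Xcl1, the chemokine that attracts cross-presenting dendritic cells, was higher (2.01 ± 0.19), as was Ccl5 (1.63 ± 0.11), while Ccl4 was lower (−1.29 ± 0.24), with 3 of 16 cytokine genes higher and 9 lower (median −1.26).

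Checkpoint receptors were lower in NK cells for 14 of 21 genes, and 1, Cd244a (2B4), was higher (median −1.26). Pdcd1 was at 757, 1164, 1088 and 769 CPM in CD8 T cells (−5.34 ± 0.59), Lag3 at 649, 862, 1136 and 582 CPM (−3.63 ± 0.30) and Havcr2 (TIM-3) at 229, 355, 279 and 311 CPM against 17.6, 4.28, 12.2 and 10.9 CPM in NK cells (−4.80 ± 0.29, edgeR adjusted p = 1.8e-05, 4 of 4). Of 22 glycolysis and hypoxia genes 20 were lower and none higher (median −1.23), Ldha being at 438, 331, 374 and 530 CPM against 907, 922, 723 and 1102 CPM. Of 31 cell cycle genes 22 were lower and none higher (median −1.73), though Mki67 was not called (−1.73, edgeR adjusted p = 0.11). It was called at −2.47 without the combination library, at −2.05 with the macrophage limit at 0.05% and at −1.85 at equal depth. Of 38 interferon response genes 20 were lower and 2 higher (median −0.55).

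Of 22 Fc receptor and adapter genes 9 were higher in NK cells and 9 lower (median −0.12): the ITAM adapters Tyrobp (2.46 ± 0.35) and Fcer1g (2.11 ± 0.38) against the T cell adapter Lat (−2.87 ± 0.17) and kinase Zap70 (−1.06 ± 0.10). Cytokine receptor and signal genes and transcription factors split evenly, with 9 higher and 9 lower of 32 and of 34, respectively (medians −0.07 and −0.01). Il2rb, the receptor chain shared by interleukin-2 and interleukin-15, was at 3494, 4349, 4091 and 3965 CPM against 1205, 2034, 1686 and 1345 CPM (1.33 ± 0.10), and Irf8, a factor known in NK cell responses to viruses, differed by 1.68 ± 0.12. Macrophage markers were lower in NK cells for 11 of 13 genes, with summed levels of 8032, 2145, 4029 and 7347 CPM in CD8 T cells, so macrophage RNA moved with this comparison as well and its part was not tested beyond the stricter limit of 0.05%.

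Among themselves, NK cells varied in maturation and in receptor choice. Mouse NK cells mature from CD27+ to CD11b+ stages, and after every cell was drawn down to 2128 UMIs (115, 156, 65 and 116 cells, with 16, 16, 10 and 9 shallower cells left out) a UMI of Itgam without Cd27 was found in 34.4%, 41.1%, 33.7% and 37.3%, of Cd27 without Itgam in 15.7%, 12.7%, 11.0% and 13.6%, of both in 10.5%, 6.71%, 6.37% and 4.82%, and of neither in 39.3%, 39.5%, 48.9% and 44.3%. The intervals of these shares overlapped between all libraries. Itgam is also a macrophage gene, with a UMI in 91.6%, 89.0%, 94.2% and 88.6% of macrophages at that depth, whereas Cd27 was found in at most 0.0666% of them. Of 8 Klra genes a cell showed a median of 2 in each library and at most 5, 5, 4 and 5, and 23, 16, 11 and 14 cells showed none.

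At that common depth Gzma was found in 86.1%, 95.1%, 86.8% and 83.1% of NK cells, Prf1 in 84.5%, 88.5%, 86.8% and 84.8%, and Gzmb in 75.8%, 82.3%, 76.1% and 75.5%. Gzmc was found in only 21.8%, 12.3%, 20.3% and 24.1%, although its summed level was of the order of that of Gzmb, since the 5 cells with the most Gzmc held 73.3%, 88.7%, 91.8% and 58.6% of its UMIs. Ifng was found in 45.4%, 48.7%, 51.0% and 30.8% (interval in the combination 22.8% to 40.3%), and at full depth in 58.0%, 62.2%, 58.7% and 40.8%. Its share was thus lowest in the combination, and macrophages were at 0.0930%, 0.121%, 0.0738% and 0.249%. Lag3 was found in 5.78%, 3.83%, 5.83% and 11.9%, against 0.650%, 0.848%, 0.345% and 0.474% of macrophages, and Pdcd1 in 1.64%, 0%, 1.35% and 3.16%. The combination intervals of Lag3 (6.76% to 19.4%) and Pdcd1 (0.947% to 8.59%) overlapped those of every other library.

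**Figure D3:**
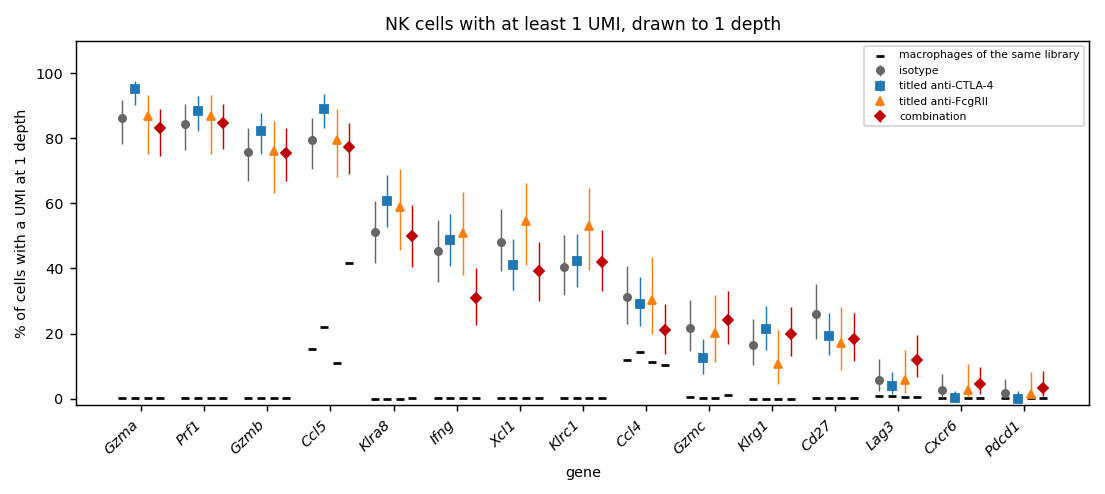
The percent of NK cells with at least 1 UMI, at 2128 UMIs per cell, is plotted for 15 genes in each library, with 95% exact binomial intervals and a dash for macrophages at the same depth. Gzma and Prf1 are near the top in every library, and Ifng sits lowest in the combination at 30.8%.

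Between libraries, summed NK cell levels differed at least 2-fold with an interval that left out 1 in few genes. In the combination against isotype, 81 of 5367 genes with 50 CPM or more were higher (1.51%) and 99 lower (1.84%). In the combination against titled αCTLA-4, 118 of 5253 were higher (2.25%) and 35 lower (0.666%), and against titled αFcγRII 121 of 5324 were higher (2.27%) and 70 lower (1.31%). Titled αCTLA-4 against isotype gave 26 of 5286 higher (0.492%) and 128 lower (2.42%), and titled αFcγRII against isotype gave 62 of 5378 higher (1.15%) and 163 lower (3.03%). Comparisons that share the isotype or the combination library are not independent of each other. The median ratio over all genes was 0.996, 0.991, 1.00, 1.00 and 0.996 in these 5 comparisons, so gene groups are read against a value near 1.

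The median ratio of NK identity genes in the combination was below 1 to each other library. All 15 had a ratio to titled αCTLA-4 under 1 (median 0.809), and 12 had an interval below 1, beside 433 of 5253 over all genes. The median ratio of the list was 0.916 to isotype and 0.829 to titled αFcγRII, with no gene past 2-fold. The ratios to isotype went both ways, with 6 intervals below 1 and 3 above (437 and 381 of 5367 over all genes), and 5 of 15 genes over 1. Gzma was 0.775 times its isotype level in the combination (0.739 to 0.812), Prf1 0.895 times (0.818 to 0.979) and Klrk1, which encodes NKG2D, 0.812 times (0.735 to 0.897), at 1466, 1655, 2012 and 1191 CPM. Both single-antibody libraries had medians above isotype. Titled αCTLA-4 had 14 of 15 genes above it and a median ratio of 1.21. Titled αFcγRII had 10 of 15 above it, with 8 intervals above 1 and 0 below, and a median of 1.14. Over all genes 2646 of 5286 and 2646 of 5378 ratios were above 1. The 14 lectin-like receptor genes had a median ratio of 0.941 in the combination to isotype. Only Klra3 (Ly49C, inhibitory) was called, at 52.9, 42.8, 58.2 and 26.4 CPM (0.499, 0.258 to 0.934). Over all genes 99 of 5367 were called lower. Klrb1b was at 815, 977, 1222 and 1256 CPM (1.54, 1.37 to 1.73).

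Cytokine transcripts were lower in the combination for Ifng, at 452, 529, 401 and 275 CPM, a ratio of 0.609 to isotype (0.500 to 0.740). Socs3, a feedback inhibitor of cytokine signals, was at 120, 104, 141 and 54.4 CPM (0.453, 0.292 to 0.691), below all 3 other libraries, and Cish, the feedback inhibitor of interleukin-15 signals, was at 115, 133, 135 and 63.7 CPM (0.555, 0.366 to 0.833). Xcl1 was highest in isotype, at 1996, 820, 916 and 1190 CPM, so that it was called lower in titled αCTLA-4 (0.411, 0.371 to 0.455) and titled αFcγRII (0.459, 0.403 to 0.522). Over all 5367 genes tested, 81 were called higher and 99 lower in the combination to isotype. Of 13 cytokine genes 1 was called higher and 2 lower there (median 0.858). One of the lower was Cxcl10, an interferon-induced chemokine, at 199, 27.1, 18.4 and 48.1 CPM, a gene that macrophages held at 273, 418, 256 and 612 CPM. The 1 higher was Cxcl9, another interferon-induced chemokine, at 30.0, 14.3, 15.3 and 83.9 CPM (2.80, 1.60 to 5.14), also called higher than in both other libraries. Macrophages held it at 802, 1505, 693 and 2044 CPM, the most in the combination as well, and its part in the NK difference was not tested.

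Interferon response genes had median ratios to isotype below 1 in all 3 other libraries, though few passed 2-fold. Of 35 tested in the combination to isotype, none was called higher and 5 lower (99 of 5367 lower over all genes). Intervals below 1 numbered 14, beside 437 of 5367 over all genes, and 11 ratios were above 1. The median was 0.800, beside 0.882 in titled αCTLA-4 and 0.826 in titled αFcγRII to isotype. Ifit3, an antiviral effector, was at 82.9, 38.5, 24.5 and 17.1 CPM (0.206, 0.0963 to 0.403), with UMIs in 11, 12, 5 and 8 cells. With the macrophage limit at 0.05% the combination to isotype median was 0.754 with 4 called lower and 10 intervals below 1, and with Cd3-positive cells left out it was 0.786 with 5 and 9. Without cells that had 2 or more UMIs of Mki67 and Top2a it was 0.864 with 2 and 7. The 5 cells with the most UMIs of the list held 23.1%, 15.8%, 27% and 19.0% of them.

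Among checkpoint and co-receptor genes, a few stood higher in the combination than in isotype. Tnfrsf9 (4-1BB, a costimulatory receptor induced on activated lymphocytes) was at 589, 517, 802 and 1087 CPM, 1.84 times isotype (1.62 to 2.11) and 2.11 times titled αCTLA-4 (1.85 to 2.40). Lag3 was at 42.4, 31.4, 94.9 and 109 CPM, 2.57 times isotype (1.60 to 4.27) and 1.15 times titled αFcγRII (0.740 to 1.81), so the titled αFcγRII and combination libraries did not differ beyond counting error. The transcription factor gene Rora was likewise higher in these 2 libraries than in the others, at 12.4, 24.3, 58.2 and 55.9 CPM (4.53, 1.99 to 12.1). Over 16 checkpoint genes, Lag3 and Cd28 were called higher and none lower (median 0.997). Of the 16 ratios 8 were above 1, with 3 intervals above 1 and 2 below. Over all genes 81 of 5367 were called higher and 99 lower. Fcgr3 was at 281, 144, 168 and 174 CPM in NK cells and Fcgr2b, the inhibitory receptor that the αFcγRII antibody binds, at 145, 32.8, 39.8 and 73.0 CPM. Macrophages held Fcgr2b at 1234, 1210, 1202 and 1116 CPM, and without the NK cells that had over 0.05% of macrophage rule genes the combination to isotype ratio of Fcgr2b was 0.942. Fcer1g was even across libraries, at 2479, 2514, 2566 and 2480 CPM.

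Glycolysis and hypoxia genes had median ratios above 1 in the combination to each other library, though few passed 2-fold. Of 19 tested, 16 were above isotype with 11 intervals above 1 (median 1.42, 1 called). To titled αCTLA-4, 18 were above with 14 intervals above 1 (median 1.60, 5 called), and to titled αFcγRII 17 with 10 (median 1.42, 4 called). Over all genes, 381 of 5367, 454 of 5253 and 312 of 5324 intervals lay above 1 in these comparisons, and 81, 118 and 121 genes were called higher. Pgk1 was at 88.2, 74.2, 79.6 and 155 CPM (1.76, 1.24 to 2.52), Tpi1 at 90.0, 74.2, 73.5 and 148 CPM (1.64, 1.15 to 2.35) and Ldha at 438, 331, 374 and 530 CPM (1.21, 1.03 to 1.43). Ndrg1, the hypoxia gene that was called, was at 38.8, 64.2, 98.0 and 97.8 CPM (2.52, 1.53 to 4.30), as high in titled αFcγRII as in the combination. The median mitochondrial share of UMIs in NK cells was 0.559%, 0.530%, 0.578% and 0.379%, lowest in the combination as in macrophages (0.771%, 0.851%, 1.01% and 0.549%), and its part in the library differences was not tested. Macrophages hold more of these transcripts (Pgk1 at 372, 399, 426 and 449 CPM), and with the macrophage limit at 0.05% the medians over 17 genes were 1.25, 1.43 and 1.25, with 5, 9 and 6 intervals above 1 and only 1 gene called in each comparison. Without cells that had 2 or more UMIs of Mki67 and Top2a they were 1.17, 1.48 and 1.5, with 2, 12 and 11 intervals above 1, and no gene was called in the combination to isotype, so Ndrg1 lost its call.

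Among cell cycle genes, Mki67 was at 150, 14.3, 18.4 and 162 CPM and Top2a at 117, 21.4, 27.6 and 130 CPM, and of their 151, 25, 15 and 188 UMIs the 5 highest cells held 133, 10, 10 and 159. Ratios of the list were above 1 in the combination to titled αCTLA-4 (14 of 14 genes, median 1.85) and to titled αFcγRII (14 of 14, median 1.90), and the medians were 1.06 and 1.06, over 10 genes each, without the cells that had 2 or more Mki67 and Top2a UMIs, which left 123, 168, 70 and 115 cells. These are genes of the list itself. To isotype, titled αCTLA-4 had 0 of 13 genes above 1 (median 0.647, 5 called lower) and titled αFcγRII 1 of 14 (median 0.636, 6 called lower). Over all genes, 128 of 5286 and 163 of 5378 were lower. Without the same cells these medians were 0.991 and 0.972, over 8 genes each, and none was called. For the combination against isotype the median was 1.21 with 13 of 15 genes above 1. It turned to 0.828, with 5 of 15 above 1, when cells with any Cd3 UMI were left out, which removed 5, 4, 4 and 9 cells. The same setting brought the medians to titled αCTLA-4 and titled αFcγRII to 1.43 (10 of 12 above 1, intervals above 1 from 11 to 4) and 1.48 (11 of 12, from 10 to 4). Over all genes, intervals above 1 went from 454 of 5253 to 392 of 5274 and from 312 of 5324 to 290 of 5374. Mki67 was found in 5.39%, 3.29%, 3.42% and 7.48% of NK cells at 2128 UMIs and in 17.4%, 17.6%, 19.0% and 15.9% of macrophages.

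**Figure D4:**
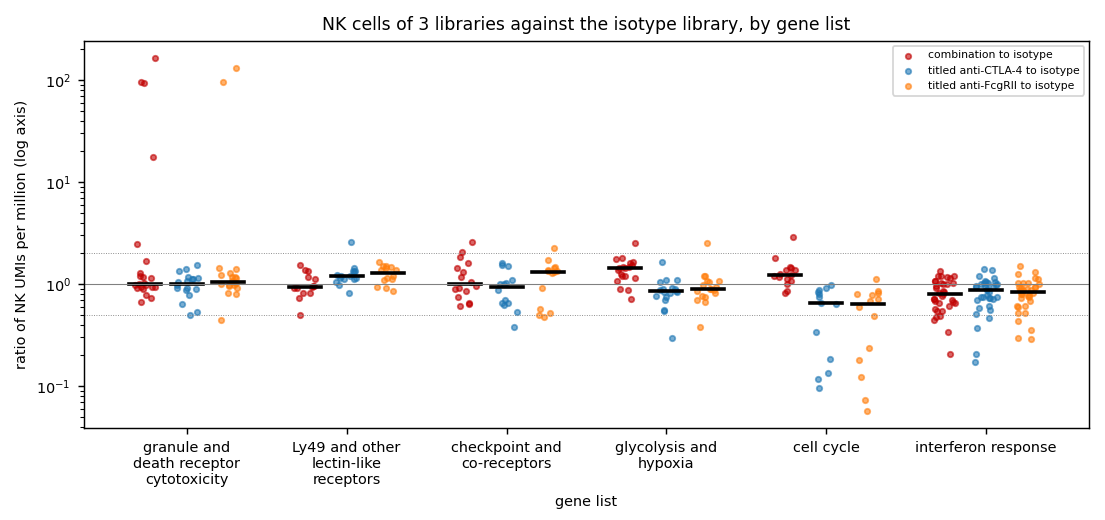
For 6 gene lists, the ratio of each tested gene's summed NK level to the isotype library is plotted on a log axis for titled αCTLA-4, titled αFcγRII and the combination, 1 point per gene, with a black bar at the median and lines at 0.5, 1 and 2. The glycolysis and hypoxia median lies at 1.42 in the combination, and the interferon response medians lie below 1 in all 3 libraries.

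Medians of the other lists in the combination to isotype were 1.10 over 31 transcription factor genes (1 called higher), 1.00 over 27 cytokine receptor genes (1 lower), 0.911 over 21 Fc receptor genes (1 higher, 1 lower), 0.895 over 11 late maturation genes (1 lower), 0.983 over 12 early or ILC1 genes (none), 0.979 over 18 migration genes (1 lower) and 0.956 over 27 immediate early genes (1 lower). Over all genes, 81 of 5367 were called higher and 99 lower, beside a median of 0.996. The 4 T cell markers tested had a median of 1.38, with 3 intervals above 1 (381 of 5367 over all genes) and Cd28 called higher. Their medians to isotype were 1.38 in titled αCTLA-4 and 1.64 in titled αFcγRII. T cell markers thus moved with the library differences, and their part was not tested beyond leaving out Cd3-positive cells. Macrophage markers had a median of 0.591 over 10 genes, with 1 called higher and 5 lower. The 3 neutrophil markers tested were all called lower (median 0.120), with 462 of the 486 isotype UMIs of this list in the single cell above. Without cells that had 5 or more neutrophil marker UMIs, none of 26 immediate early genes was called (median 0.957). Over all genes that setting gave 80 higher and 71 lower.

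Of the 81 genes higher and 99 lower in the combination, 31 and 16 also stood at least 1.5-fold beyond both single-antibody libraries, and 1 and 6 of these were set aside because the NK level was under 0.2 times that in macrophages. Besides granzymes described next, the highest ratios were those of Slpi, Dsc2, Mt2, Hist1h1d, Prss2, Myo10 and Slc37a2. Mt2, a metal-binding metallothionein, was at 10.6, 5.71, 15.3 and 144 CPM (13.6, 6.04 to 38.1) in 4, 4, 1 and 8 cells. Dsc2, a desmosomal cadherin, was at 3.53, 0, 0 and 62.1 CPM (17.6, 4.56 to 150 on 2 isotype UMIs) and at 4.40 times isotype without the cell that had most of it. Slpi, a protease inhibitor, was at 3.53, 0, 0 and 74.5 CPM, and its ratio of 21.1 (5.54 to 179) turned to 0.880 without 1 cell. The histone gene Hist1h1d (4.74, 2.60 to 9.34) fell to 1.43 with Cd3-positive cells left out. Below isotype were Cd300a, an inhibitory receptor (0.212, 0.0786 to 0.496), Ndufaf1, Gpatch11, Polr3f, Commd2, Hps3, Chd1l and Tnfsf13, with ratios of 0.320, 0.364, 0.373, 0.468, 0.469, 0.491 and 0.495, besides Socs3 and Klra3. Cd300a stood at 1.01 without cells in the top 5% of doublet scores.

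Of the genes tested in the combination to isotype, the 3 with the highest ratios were Gzmd, Gzme and Gzmf, granzymes of 1 chromosomal block. Gzmc, Gzmd, Gzme, Gzmf and Gzmg lie next to Gzmb on mouse chromosome 14, all on the minus strand (GRCm38, GENCODE M21). They lie between 56117626, the lowest coordinate of Gzme, and 56234656, the highest coordinate of Gzmc. Their promoters share a run of 20 bases that no other promoter in the table holds (5 of 32851 windows of 250 bases before to 50 after a gene start, 0.0152%), found as the longest run common to the 5 after their levels were known. The windows below are the 60 bases around it on the minus strand, 5′ to 3′ (RefSeq, GRCm38.p6), printed because the 3 highest ratios of the combination to isotype were among these 5 genes. Capitals mark the shared run.
Gzmc, chr14:56234663-56234722: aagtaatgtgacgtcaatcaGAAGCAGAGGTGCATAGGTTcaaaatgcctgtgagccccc
Gzmd, chr14:56132603-56132662: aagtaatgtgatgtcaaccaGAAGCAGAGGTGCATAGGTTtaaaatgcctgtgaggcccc
Gzme, chr14:56120636-56120695: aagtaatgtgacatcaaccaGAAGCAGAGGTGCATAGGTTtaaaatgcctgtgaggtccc
Gzmf, chr14:56211438-56211497: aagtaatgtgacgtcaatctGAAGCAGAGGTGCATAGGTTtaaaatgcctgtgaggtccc
Gzmg, chr14:56159605-56159664: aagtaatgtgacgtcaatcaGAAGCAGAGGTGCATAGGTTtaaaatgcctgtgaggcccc
The run begins 45, 49, 50, 70 and 65 bases before the RefSeq gene start of Gzmc, Gzmd, Gzme, Gzmf and Gzmg, which is not the same base as the GENCODE start for every gene. These genes are near-identical copies, and UMIs of Gzmd, Gzme and Gzmg in particular may be assigned to one another. The shared run is a description of sequence, not of binding or control.

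Gzmd was at 7.06, 49.9, 674 and 1148 CPM in NK cells, detected in 2, 2, 2 and 15 cells, and its combination to isotype ratio was 163 (63.2 to 598). Gzmf was at 0, 0, 15.3 and 497 CPM in 0, 0, 2 and 6 cells, at least 93.9-fold above isotype against a floor of 3 UMIs in that library (its exact interval begins at 75.9). Gzmg was at 0, 5.71, 12.2 and 93.2 CPM in 0, 2, 1 and 4 cells, at least 17.6-fold above it by the same floor (interval from 13.9). The titled αFcγRII library reached its Gzmd level with 2 cells, and the ratio of the combination to it was 1.70 (1.46 to 1.99). Gzme was at 3.53, 18.5, 462 and 337 CPM in 1, 2, 2 and 11 cells, with the combination 0.729 times titled αFcγRII (0.589 to 0.903), and Gzmc was 2.48 times isotype in the combination (2.35 to 2.62). Single cells weighed on each sum: the top cell held 3 of 6, 47 of 52, 273 of 380 and 746 of 1336 UMIs of Gzmd to Gzmg. Cells with 2 or more Mki67 and Top2a UMIs weighed on the sums as well. In titled αFcγRII no NK cell had more than 2 of these UMIs. Its NK cells with Gzmd to Gzmg were deep, at a median of 14604 UMIs. Whether this limit picked out dividing cells, deep cells or cells with mixed RNA was not tested. Without the cells that had 2 or more Mki67 and Top2a UMIs, a setting added after seeing the data, Gzmd to Gzmg summed to 11.8, 76.1, 0 and 425 CPM in 3, 3, 0 and 9 cells, so none was left in titled αFcγRII. Gzmd was then at 7.86, 51.2, 0 and 290 CPM (combination to isotype 37.0, 14.1 to 137), Gzme at 3.93, 19.0, 0 and 68.2 CPM, Gzmf at 0, 0, 0 and 11.7 CPM, and Gzmc 1.14 times isotype in the combination (1.06 to 1.21).

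The number of cells depends less on such single cells. At least 1 UMI of Gzmd to Gzmg was found in 3, 3, 2 and 17 NK cells, or 2.29% (0.475% to 6.55%), 1.74% (0.361% to 5.01%), 2.67% (0.325% to 9.30%) and 13.6% (8.13% to 20.9%), and at 2128 UMIs in 1.17%, 1.49%, 3.08% and 12.7%. Macrophages were at 0.145%, 0.255%, 0.0904% and 1.12% at that depth, and their share too was highest in the combination, below the interval of the NK share there. Of the positive NK cells 3, 2, 2 and 13 also had Gzmc, and 0, 2, 2 and 11 had 3 or more of the 5 genes. This measure was chosen after the values of the genes had been seen.

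Eomes-positive NK cells were not the main carriers of these granzymes. Cells of the gate with both Eomes and Itga1 or Cd200r1, which the rule leaves out, had them in 26.4%, 21.1%, 20.3% and 58.2%, and ILC1-like cells in 20.0%, 26.2%, 25% and 50.7% (15.5%, 18.4%, 17.4% and 45% at 2128 UMIs). The combination was highest in each of the 3 classes. Summed levels of Gzmd to Gzmg were 10.6, 74.2, 1164 and 2075 CPM in NK cells, 9838, 2580, 2624 and 18783 CPM in cells with both markers, and 612, 644, 1321 and 3284 CPM in ILC1-like cells. NK cells with these granzymes had a median of 1, 2, 3 and 4 Eomes UMIs and of 6816, 6755, 14604 and 8356 UMIs in all, deeper than the median NK cell of their library.

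**Figure D5:**
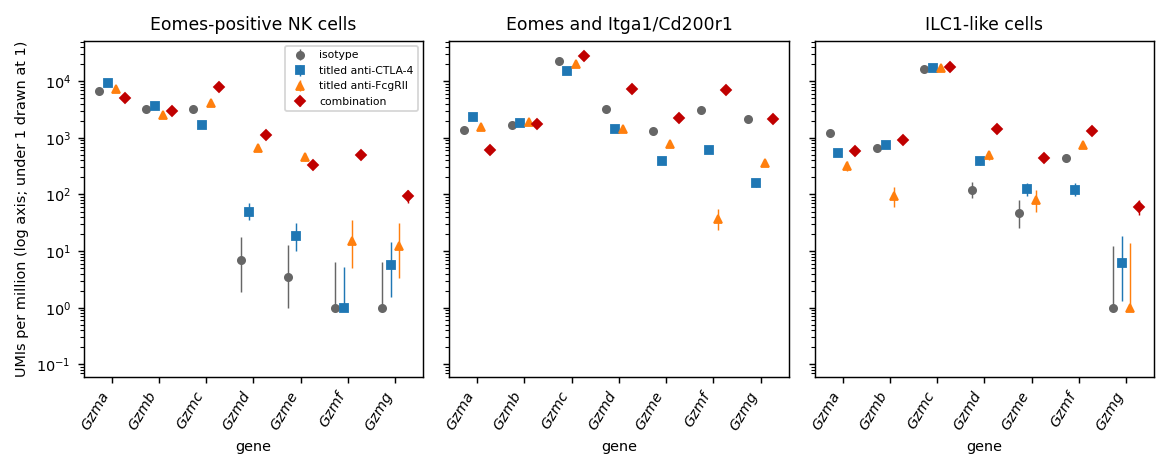
Summed levels of Gzma to Gzmg in CPM are plotted on a log axis (values under 1 drawn at 1) for the 4 libraries in NK cells, in gated cells with Eomes and Itga1 or Cd200r1, and in ILC1-like cells. In NK cells Gzma runs from 5145 CPM in the combination to 9352 CPM in titled αCTLA-4, while Gzmd runs from 7.06 CPM in isotype to 1148 CPM in the combination.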

How the data were processed

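CD45+ tumor cells were sorted, fixed and profiled by Chromium Flex, which reads transcripts through probe pairs for 19059 genes. The deposited values are raw UMI counts per gene and cell, made by the authors with Cell Ranger (7.0.0 in the submitters' processing notes, 7.2.0 in the matrix header) on mm10. They were not normalized. The GEO records and the article differ in mice, day, tumor size and doses, and the records were followed.

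All-cell totals were 178178393, 129151823, 142472286 and 196362818 UMIs. Members and gene lists were chosen with earlier results of these data known. Because no Scrublet threshold worked (2, 3, 2 and 3 cells called), no cell was removed as a doublet. Macrophages (at least 10 C1q UMIs and 1 of Csf1r, none of Cd3, Ncr1 or Klrb1c) gave the background. Classes were compared on UMI counts summed per library (edgeR 4.0.16, R 4.3.3, quasi-likelihood, TMM, filterByExpr, library as block, Benjamini-Hochberg at 0.05). Libraries were compared by ratios of CPM with exact conditional binomial 95% intervals, called at 2-fold or 0.5-fold with 50 CPM in the higher library. Depth was equalised by 100 seeded draws. Named genes in class comparisons were the 10 largest and 10 smallest log2 differences among called genes with 1 sign in 4 libraries and 50 CPM in the higher class. Those between the combination and isotype were the 10 highest and lowest ratios that also stood 1.5-fold beyond both other libraries at 0.2 times the macrophage level or more. Members of the gene lists could also be named. Scripts used Python 3.11.15, scipy 1.17.1 and scanpy 1.11.5, and tests were tried on simulated data. Alternatives were DESeq2 1.42.0, other gates, scalings and level minimums, and leaving out libraries or doublet-like cells. Cells with neutrophil RNA and cells with 2 or more Mki67 and Top2a UMIs were also left out. These last 2 settings and the share of the gate at full depth were added after seeing the data.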

Additional observations from a re-analysis of the deposited data

How the results depend on the processing

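Each group was 1 library, so depth and counting error limit every ratio between libraries, most in titled αFcγRII with 75 NK cells, and no spread between mice is known. Another scaling moved the median of all genes by less than 0.1 on the log2 scale. No paired analysis between groups was possible because each group has a single library. The class comparisons were paired within library by the block. Dropping the library block gave 384 higher and 352 lower genes against ILC1-like cells and 861 and 1048 against CD8 T cells. Causes of the changes below were not tested. The NK share depended on its denominator. Over lymphocytes the combination stood at 0.791, 0.908 and 0.809 times isotype, titled αCTLA-4 and titled αFcγRII, and titled αCTLA-4 at 0.871 times isotype. Over the NK and ILC gate these were 0.761, 0.788, 0.881 and 0.965, and at equal depth 0.799, 0.788, 0.882 and 1.01. DESeq2 found 177 genes higher and 206 lower than in ILC1-like cells and 542 higher than in CD8 T cells, and equal depth gave 185, 223 and, lower than in CD8 T cells, 639. Leaving out 1 library at a time gave 153 to 302 genes higher and 175 to 328 lower against ILC1-like cells and 564 to 741 and 714 to 917 against CD8 T cells. Klrg1 turned to −0.20 at equal depth. Fcgr3 and Tbx21, not called against ILC1-like cells, changed sign: Fcgr3 to 0.012 with DESeq2 (−0.33 to 0.48 with 1 library left out), 0.19 without the top 5% of doublet scores and 0.14 at a macrophage limit of 0.05%, and Tbx21 to −0.042 without those doublet scores and −0.046 at that limit (−0.034 to 0.076 with 1 library left out). Slpi turned to 0.399 at that limit, 0.421 without the doublet scores and 0.880 without its top cell, and Cd300a to 1.01 without the doublet scores.

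Counts of 2-fold genes followed the level minimum. At 100 CPM the higher and lower counts were 22 and 28 for the combination to isotype, 45 and 7 to titled αCTLA-4, 37 and 18 to titled αFcγRII, 4 and 47 for titled αCTLA-4 to isotype and 14 and 46 for titled αFcγRII to isotype. At 25 CPM they were, in the same order, 152 and 207, 244 and 104, 214 and 108, 85 and 266, and 102 and 279. Without the top cell of each gene, 56 were lower in the combination to isotype, 71 higher to titled αCTLA-4 and 34 lower to titled αFcγRII, 68 lower in titled αCTLA-4 to isotype and 28 higher in titled αFcγRII to isotype. Averaging over cells gave 109 lower in the combination to titled αFcγRII, and 47 higher and 78 lower in titled αCTLA-4 to isotype, where the macrophage limit of 0.05% gave 40 higher. Without cells with 2 or more Mki67 and Top2a UMIs, a setting chosen after seeing the data, 78 genes were higher in the combination to titled αCTLA-4.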
